A study of Mus musculus with 9 samples.

Results

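The matrix metalloproteinases (MMPs) and their tissue inhibitors (TIMPs) were followed through 9 RNA-sequencing libraries of mouse bone marrow-derived macrophages (BMDMs). The genes Mmp9, Mmp12, Mmp13, Mmp14, Mmp19, Timp1, Timp2 and Timp3 were taken by name from the deposited table, which gave 8 of its 28379 genes. All 8 passed the filter on low counts, so they were among the 17002 genes that were tested.

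The BMDMs came from C57BL/6 mice (C57BL/6J in the study's methods), and every culture received M-CSF (20 ng/ml) for 48 h. RANKL (100 ng/ml) was left out of the PBS group and given to both others. Cultures of the RANKL + Vit D + K group also had vitamin D (calcitriol, 1000 nM) and vitamin K (MK4, 20 μM). The MK4 dose is that of the sample labels, and the study's methods give a higher one. Each group had 3 libraries. The methods speak of pooled RNA, and no source used here ties a library to an animal or a culture, so p-values measure only the spread between these libraries, which may be technical. No group received a vitamin without RANKL, or only 1 of the vitamins, so the parts of vitamin D and vitamin K cannot be told apart.

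MMPs are zinc-dependent endopeptidases that cut collagens, elastin and other proteins of the extracellular matrix. Most are secreted as inactive proenzymes, some are anchored in the cell membrane, and TIMPs block their active sites. Osteoclasts, the bone-resorbing cells that macrophages form under M-CSF and RANKL, are known for high levels of MMP9 and MMP14, whereas MMP12 is the elastase of macrophages and MMP13 is a collagenase of the growth plate and of remodelling bone.

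Total counts lay between 65915112 and 68229647 per library, and 3 counts made up at most 4.55e-06% of a library. This floor covers counting error only. All 7 macrophage markers (such as Csf1r and Cd68) had counts in every group, with a summed level of 26389 to 30621 FPKM with PBS (fragments scaled to transcript length and sequencing depth, as computed by the authors), 16667 to 24285 FPKM with RANKL and 4531 to 11575 FPKM with RANKL + Vit D + K. Lyz2 alone made up 70.4% to 92.4% of this sum. Of the 7 markers, 5 were called lower with the vitamins than with RANKL (edgeR), Csf1r among them, and 1, Cd68, was called higher, beside 17.2% and 16.4% of all tested genes. The 13 stromal and skeletal markers summed to at most 0.645 FPKM in any library, the 4 endothelial markers to at most 3.18 FPKM, and the 4 dendritic and lymphoid markers in the table to at most 0.400 FPKM. RANKL + Vit D + K replicate 2 stood apart. Across all tested genes, its log2 CPM (counts scaled to library size) correlated with those of RANKL replicate 2 at r = 0.952 and with RANKL + Vit D + K replicates 1 and 3 at r = 0.951 and r = 0.960, whereas the latter 2 libraries correlated with each other at r = 0.975. Genes are not independent replicates, so these correlations are descriptions. The called results for the 8 genes are therefore also given without this library, as are counts over lists that it changes.

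Of the 8 genes, the gelatinase gene Mmp9 differed most between RANKL and PBS. With RANKL, Mmp9 and Mmp14 were higher and Mmp12 was lower than with PBS, so that 3 of the 8 genes passed the test (edgeR's quasi-likelihood test, adjusted p under 0.05), against 3.61% of all tested genes. Of all tested genes, 2.35% were called higher and 1.26% lower. With RANKL + Vit D + K, Mmp12 and Mmp13 were higher and Mmp9, Mmp14, Mmp19 and Timp2 were lower than with RANKL alone. These 6 of 8 stood against 33.7% of all tested genes, with 16.4% called higher and 17.2% lower. Between RANKL + Vit D + K and PBS, 5 of the 8 genes were called, with Mmp9 and Mmp12 higher and Mmp14, Mmp19 and Timp2 lower, against 40.8% of all tested genes, with 19.8% called higher and 21.0% lower. The median log2 fold change of the 8 genes was -0.30, -1.74 and -0.73 in these comparisons, beside -0.04 over all tested genes in each. Each pair of comparisons shares the libraries of 1 group, so their values are given side by side and are not independent of each other. An exact permutation test (two-sided) has a smallest possible p of 0.1 at 3 libraries a side, and gave p = 0.1 wherever groups are said below not to overlap.

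**Figure D1:**
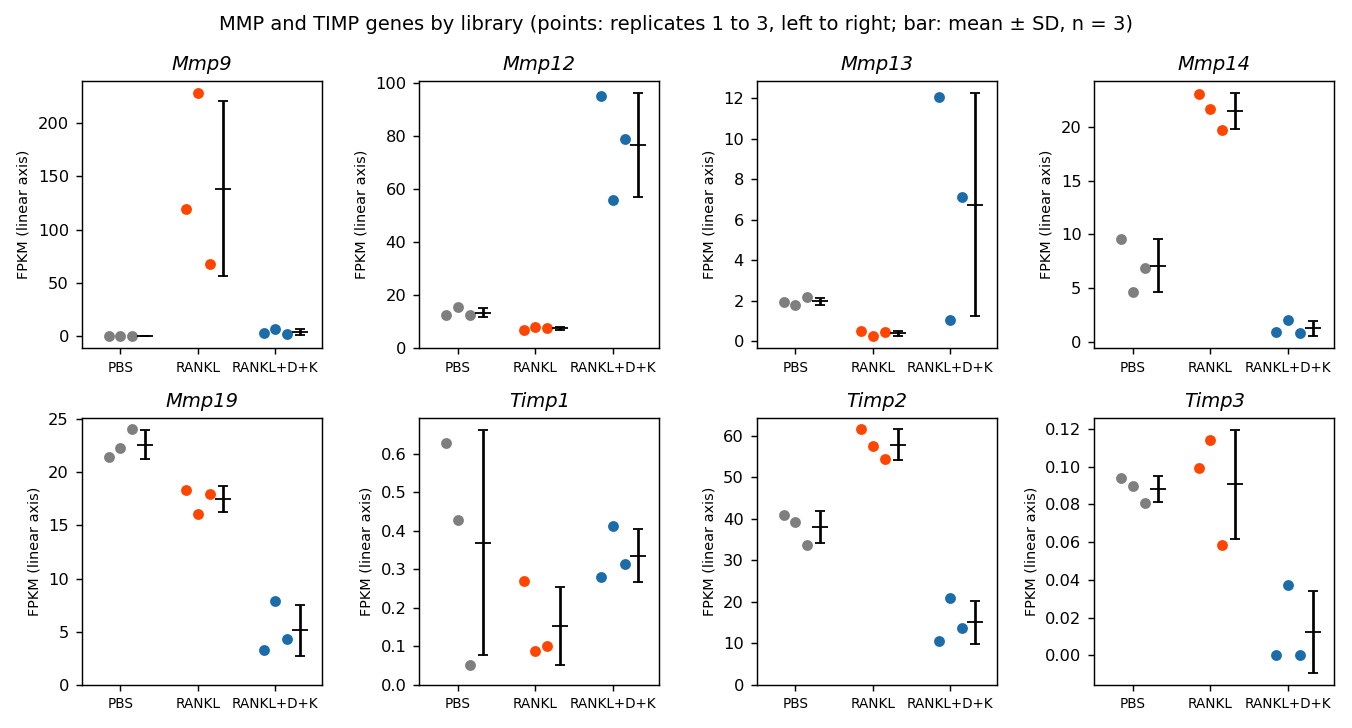
Level of each MMP and TIMP gene in each library, as FPKM on a linear axis with its own scale in each panel; points are replicates 1 to 3 from left to right and bars are the mean ± SD (n = 3). Mmp9 is highest with RANKL (67.2 to 228 FPKM), Mmp12 and, by its mean, Mmp13 are highest with the vitamins, and Mmp14 (0.849 to 2.11 FPKM) and Timp2 (10.6 to 20.8 FPKM) are lowest there.

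Mmp9 (ENSMUSG00000017737, chromosome 2, 164940780 to 164955850, plus strand) encodes gelatinase B, which cuts denatured collagens and type IV collagen. Its level was 0.472, 0.253 and 0.0927 FPKM in PBS replicates 1, 2 and 3. With RANKL it was 119, 228 and 67.2 FPKM. With RANKL + Vit D + K it was 3.01, 6.85 and 1.89 FPKM. The 3 groups did not overlap, with every vitamin library between the PBS and the RANKL libraries. Mmp9 was 450-fold higher with RANKL than with PBS (log2 fold change 8.81, standard error (SE) 0.811, adjusted p = 0.00129, edgeR). With the vitamins it was 32.2-fold lower than with RANKL alone (log2 fold change -5.01, SE 0.674, adjusted p = 0.00135, edgeR) and still 14.0-fold higher than with PBS (3.81, SE 0.667, adjusted p = 0.00249, edgeR). Without RANKL + Vit D + K replicate 2, the last 2 log2 fold changes were -5.56 and 3.25, and both remained called. Without PBS replicate 1, the highest of the PBS libraries, the log2 fold changes against PBS were 9.55 with RANKL and 4.53 with the vitamins (adjusted p = 0.00622 and 0.00638, edgeR).

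Most, but not all, osteoclast markers were higher with RANKL and lower with the vitamins, as Mmp9 was. Of these 8 genes, among them Acp5 and Ctsk, 7 were called higher with RANKL than with PBS (6 with the replicate block, without Calcr), beside 2.35% of all tested genes. Against PBS, 4 were called higher with the vitamins, beside 19.8%. Against RANKL, 6 were called lower and 1 higher with the vitamins, beside 17.2% and 16.4%. The marker that was higher with the vitamins was Itgb3, an integrin subunit gene, and Atp6v0d2 was not called between the vitamins and RANKL. When RANKL + Vit D + K replicate 2 was left out, RANKL against PBS gave 8 higher, the vitamins against RANKL gave 6 lower and 1 higher, and the vitamins against PBS gave 4 higher and 1 lower. Of all genes then tested, 10.7%, 46.4% and 49.8% were called in either direction. The summed level of the 8 markers was 14.3 to 22.3 FPKM with PBS, 407 to 773 FPKM with RANKL and 62.1 to 91.0 FPKM with RANKL + Vit D + K, and Calcr was at 0 in all PBS and all vitamin libraries. Their part in the result for Mmp9 was not tested. In bulk RNA, fewer cells of a type and less RNA per cell cannot be told apart.

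Mmp14 (ENSMUSG00000000957, chromosome 14, 54431612 to 54441265, plus strand) encodes the membrane-type metalloproteinase MT1-MMP, a collagenase at the cell surface that also activates other proenzymes. Its level was 9.63, 4.71 and 6.93 FPKM with PBS, 23.0, 21.6 and 19.7 FPKM with RANKL, and 0.916, 2.11 and 0.849 FPKM with RANKL + Vit D + K. The groups did not overlap in any comparison, and the vitamin libraries lay below those of PBS. Mmp14 was 2.77-fold higher with RANKL than with PBS (log2 fold change 1.47, SE 0.330, adjusted p = 0.0472, edgeR). It was 15.3-fold lower with the vitamins than without them (log2 fold change -3.94, SE 0.365, adjusted p = 0.000362, edgeR) and 5.54-fold lower than with PBS (-2.47, SE 0.343, adjusted p = 0.000921, edgeR). Without RANKL + Vit D + K replicate 2 the last 2 log2 fold changes were -4.37 and -2.91. Unlike Mmp9, which stayed above its PBS level, Mmp14 fell below it. Mmp9 and Mmp14 were thus the called genes of this family that RANKL raised, and both were lower with the vitamins.

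The remaining call between RANKL and PBS was Mmp12, described next, and only Mmp9 was called in every alternative analysis of that comparison. PBS and RANKL libraries that shared a replicate number shared deviations from their group means. The replicate number was therefore also fitted as a block, over all 9 libraries, those of the vitamin group included. The adjusted p-values (edgeR) were then 0.000724 for Mmp9, 0.0631 for Mmp14 and 0.0655 for Mmp12. In that fit 1 of the 8 genes was called, beside 4.85% of all tested genes. Leaving out any PBS or RANKL library also left Mmp9 as the sole call, when 0.709% to 1.78% of all tested genes were called, whereas without RANKL + Vit D + K replicate 2, which is in neither group but enters the filter, the scaling and the shared spread, 6 of 8 were called, when the share of all tested genes called rose as well, from 3.61% to 10.7%.

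**Figure D2:**
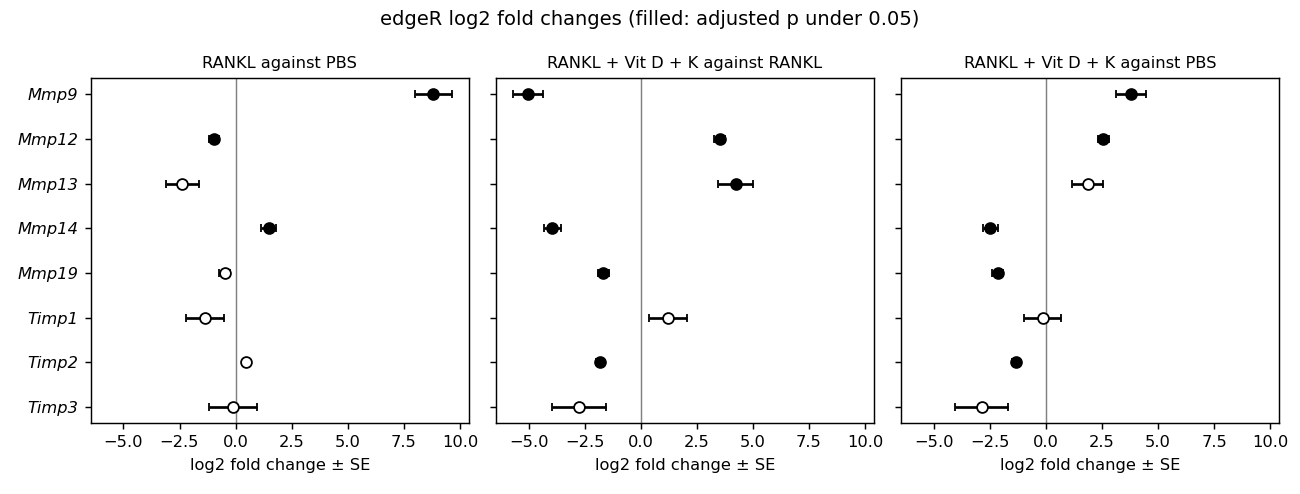
Log2 fold changes (edgeR, horizontal axis, ± SE) of the MMP and TIMP genes in the 3 comparisons; filled points have an adjusted p-value under 0.05. RANKL against PBS has 3 filled points, the vitamins against RANKL have 6 and the vitamins against PBS have 5, and Mmp9 and Mmp14 lie on opposite sides of 0 in the left and middle panels.

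Mmp12 (ENSMUSG00000049723, chromosome 9, 7344381 to 7369499, plus strand) encodes macrophage metalloelastase, which cuts elastin. Its level was 12.3, 15.5 and 12.5 FPKM with PBS, 6.88, 8.01 and 7.65 FPKM with RANKL, and 95.0, 55.8 and 79.1 FPKM with RANKL + Vit D + K. The groups did not overlap, and the lowest vitamin library lay above the highest library of either other group. Mmp12 was 1.95-fold lower with RANKL than with PBS (log2 fold change -0.96, SE 0.221, adjusted p = 0.0497, edgeR). With the vitamins it was 11.5-fold higher than with RANKL alone (3.52, SE 0.242, adjusted p = 0.000158, edgeR) and 5.90-fold higher than with PBS (2.56, SE 0.232, adjusted p = 0.000222, edgeR). Without RANKL + Vit D + K replicate 2 the last 2 log2 fold changes were 3.76 and 2.79.

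Mmp13 (ENSMUSG00000050578, chromosome 9, 7272514 to 7283331, plus strand) encodes collagenase-3, which cuts fibrillar collagens. Its level was 1.96, 1.79 and 2.17 FPKM with PBS and 0.505, 0.270 and 0.455 FPKM with RANKL. With RANKL + Vit D + K it was 12.0, 1.08 and 7.15 FPKM. All 3 vitamin libraries lay above those of RANKL, but replicate 2 lay below all PBS libraries, so the vitamin and PBS groups overlapped. Mmp13 was 18.9-fold higher with the vitamins than with RANKL alone (log2 fold change 4.24, SE 0.782, adjusted p = 0.00463, edgeR). This log2 fold change was 4.76 without RANKL + Vit D + K replicate 2 and 3.47 without replicate 1, called in both. For Mmp13, the RANKL group against PBS gave a log2 fold change of -2.38 (SE 0.729, adjusted p = 0.115) and the vitamins against PBS gave 1.86 (SE 0.701, adjusted p = 0.0599), neither of which passed edgeR's test. DESeq2 called both (adjusted p = 0.00471 and 0.00995), and so did edgeR without RANKL + Vit D + K replicate 2 (log2 fold changes -2.38 and 2.38, adjusted p = 0.00367 and 0.000363). By group means, the order vitamins, PBS, RANKL is the one Mmp12 showed.

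Mmp12 and Mmp13 lie 71.9 kb apart from start to start, in a row of MMP genes on chromosome 9, of which the 8 in the table from Mmp13 to Mmp27 span 308.9 kb (7272514 to 7581415). Of the MMP genes sought by name, on any chromosome, Mmp7, Mmp20 and Mmp21 were not in the deposited table. Of the 8 genes of this stretch, 4 had enough counts to be tested. These 4 did not all move the same way. Mmp8, which encodes neutrophil collagenase, was 1.71-fold lower with the vitamins than with RANKL (log2 fold change -0.77, adjusted p = 0.0289, edgeR), and Mmp27 was 1.94-fold lower (-0.95, adjusted p = 0.0367, edgeR). Mmp1a and Mmp3 had no count in any library, and Mmp1b and Mmp10 had at most 5 and 24 counts.

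Because Mmp12 and Mmp13 both rose with the vitamins and Mmp14 fell, the 120 bases before their starts are shown, from RefSeq on GRCm38.p6, with capitals for matches to the AP-1 site TGANTCA or the GC box GGGCGG on either strand. RefSeq start windows were at hand for 6 of the 8 genes, in 7 windows, with none for Mmp9 and Mmp19. The windows are, on the plus strand, chr9:7347254-7347373 (the second Mmp12 start, which begins the longest annotated Mmp12 transcript), chr9:7272394-7272513 (Mmp13) and chr14:54431478-54431597 (Mmp14).
Mmp12: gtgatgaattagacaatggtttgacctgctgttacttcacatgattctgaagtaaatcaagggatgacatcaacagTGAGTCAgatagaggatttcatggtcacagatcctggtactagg
Mmp13: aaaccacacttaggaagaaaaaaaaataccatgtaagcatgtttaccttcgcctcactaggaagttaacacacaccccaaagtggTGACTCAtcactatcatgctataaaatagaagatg
Mmp14: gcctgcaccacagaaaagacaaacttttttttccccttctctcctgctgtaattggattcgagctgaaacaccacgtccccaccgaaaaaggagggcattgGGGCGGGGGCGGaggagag
An AP-1 match began 44 bases before the second Mmp12 start and 35 bases before the Mmp13 start. The other 5 windows, that of the first Mmp12 start among them, had none. Among 32851 promoters, 6.75% held such a match within 250 bases before the start. The Mmp14 window held GC boxes 19 and 13 bases before the start, which overlap no AP-1 match, and 32.7% of promoters held a GC box. The windows of Timp1, Timp2 and Timp3 held a GC box too, so it was not particular to Mmp14. A RUNX match (TGTGGT) began 118 bases before the Mmp13 start and 114 bases before the Mmp14 start, in a gene that rose and a gene that fell, and 14.0% of promoters held one. No window matched the vitamin D receptor element tested (a direct repeat of AGGTCA or AGTTCA with 3 bases between), which 0.0122% of promoters held. A match is a description of letters and not a bound site.

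Mmp19 (ENSMUSG00000025355, chromosome 10, 128790910 to 128800824, plus strand) encodes a secreted metalloproteinase that cuts basement membrane proteins. Its level was 21.4, 22.3 and 24.1 FPKM with PBS, 18.4, 16.1 and 18.0 FPKM with RANKL, and 3.24, 7.87 and 4.29 FPKM with RANKL + Vit D + K. The 3 groups did not overlap, in the order PBS, RANKL, vitamins. The log2 fold change between RANKL and PBS was -0.49 (SE 0.232, adjusted p = 0.303, edgeR), which did not pass. With the vitamins Mmp19 was 3.16-fold lower than with RANKL alone (log2 fold change -1.66, SE 0.239, adjusted p = 0.00172, edgeR) and 4.44-fold lower than with PBS (-2.15, SE 0.242, adjusted p = 0.000407, edgeR). Without RANKL + Vit D + K replicate 2 these log2 fold changes were -2.005 and -2.50, and the difference between RANKL and PBS passed (-0.49, adjusted p = 0.0373, edgeR). Of its 3533 exon bases, 789 are shared with Tmem198b on the opposite strand, which had 1095 to 1536 counts with PBS, 885 to 1091 with RANKL and 263 to 757 with the vitamins. Whether the counting used strand is not given in the sources used here, so reads from this shared stretch cannot be told apart.

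Among the inhibitors, Timp2 (ENSMUSG00000017466, chromosome 11, 118301069 to 118355740, minus strand) was the abundant one. TIMP2 inhibits most MMPs and takes part with MT1-MMP in the activation of pro-MMP2. Its level was 40.9, 39.3 and 33.6 FPKM with PBS, 61.7, 57.4 and 54.3 FPKM with RANKL, and 10.6, 20.8 and 13.7 FPKM with RANKL + Vit D + K. The groups did not overlap, with RANKL highest and the vitamins lowest, as for Mmp14. The log2 fold change between RANKL and PBS was 0.49 (SE 0.176, adjusted p = 0.176, edgeR), which did not pass. With the vitamins Timp2 was 3.53-fold lower than with RANKL alone (log2 fold change -1.82, SE 0.181, adjusted p = 0.00044, edgeR) and 2.52-fold lower than with PBS (-1.33, SE 0.179, adjusted p = 0.00079, edgeR). Without RANKL + Vit D + K replicate 2 these were -2.03 and -1.55, and the difference between RANKL and PBS passed (0.49, adjusted p = 0.0283, edgeR). Mmp2, the gene of gelatinase A, was at 0.698 ± 0.112 FPKM with PBS, 0.633 ± 0.383 FPKM with RANKL and 0.332 ± 0.169 FPKM with RANKL + Vit D + K (SD, n = 3) and was not called in any comparison.

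Timp1 (ENSMUSG00000001131, chromosome X, 20870166 to 20874735, plus strand) encodes an inhibitor that also binds pro-MMP9. Its counts were 42, 29 and 4 with PBS, 19, 6 and 7 with RANKL and 19, 29 and 21 with RANKL + Vit D + K, or 0.0511 to 0.629, 0.0873 to 0.271 and 0.280 to 0.413 FPKM. PBS replicate 3 lay below all other libraries and PBS replicate 1 above them, so that the PBS libraries spanned the values of both other groups. No comparison passed edgeR's test, with log2 fold changes of -1.35 (SE 0.850, adjusted p = 0.453) between RANKL and PBS, 1.22 (SE 0.850, adjusted p = 0.297) between the vitamins and RANKL and -0.13 (SE 0.825, adjusted p = 0.916) between the vitamins and PBS. The vitamin and RANKL libraries did not overlap, though the lowest with the vitamins (0.280 FPKM) lay close to the highest with RANKL (0.271 FPKM). No change of Timp1 passed the test at these counts.

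Timp3 (ENSMUSG00000020044, chromosome 10, 86300372 to 86349506, plus strand) encodes a matrix-bound inhibitor that also blocks the shedding protease ADAM17. Its counts were 57, 56 and 50 with PBS, 61, 70 and 37 with RANKL, and 0, 24 and 0 with RANKL + Vit D + K. The vitamin libraries lay below all others, and both zeros fell in replicates 1 and 3. The log2 fold change was -2.75 (SE 1.19, adjusted p = 0.104, edgeR) against RANKL and -2.86 (SE 1.20, adjusted p = 0.0837, edgeR) against PBS, and neither passed. DESeq2 called both (adjusted p = 0.0419 and 0.0313), as did edgeR without RANKL + Vit D + K replicate 2 (adjusted p = 0.000247 and 0.000221), when both vitamin libraries left were at 0. Between RANKL and PBS the log2 fold change was -0.11 (SE 1.08, adjusted p = 0.973, edgeR). Of its 8144 exon bases, 1733 are shared with Syn3 on the opposite strand, which had 0 to 25 counts in every library.

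**Figure D3:**
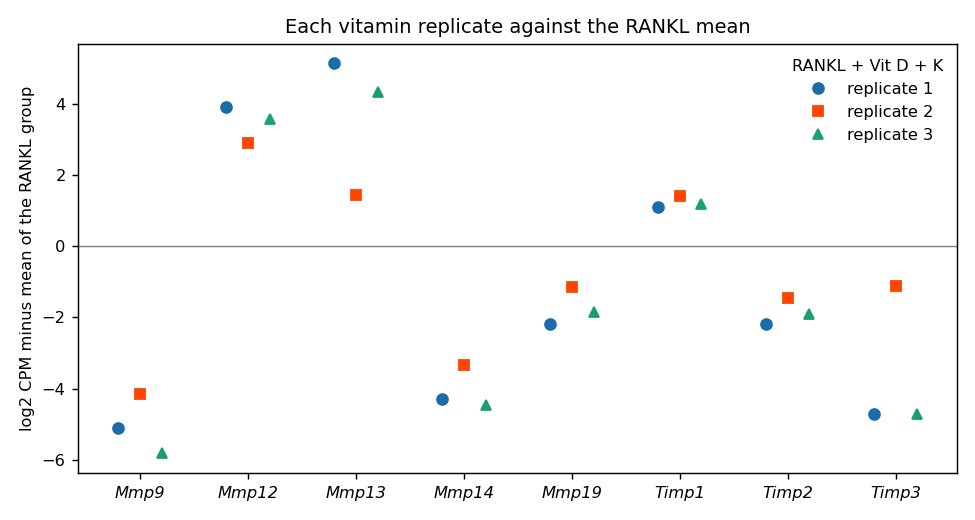
Difference in log2 CPM (vertical axis) between each RANKL + Vit D + K library and the mean of the RANKL group, for each gene. Replicate 2 is nearest to the RANKL mean, the line at 0, for every gene but Timp1, and the gap is widest for Timp3 (-1.12 against -4.72 in both other libraries, whose counts of 0 enter with a prior count of 2) and Mmp13 (1.43 against 5.13 and 4.32).

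The vitamin libraries differed among themselves in a common way. Replicate 2 was the library nearest to the RANKL mean for 7 of the 8 genes, all but Timp1. Over all tested genes this was so for 59.1%, and over the 5725 genes called between the vitamins and RANKL for 78.3%. For Mmp9, for example, the difference from the RANKL mean on the log2 CPM scale was -4.15 in replicate 2, and -5.09 and -5.82 in replicates 1 and 3. The direction was nevertheless the same in all 3 vitamin libraries for each gene.

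The makeup of the family's transcripts differed between the groups. As a share of the summed FPKM of the 8 genes, Timp2 held 42.2% to 46.8% in the PBS libraries, Mmp9 40.1% to 68.7% in the RANKL libraries and Mmp12 58.8% to 75.9% in the RANKL + Vit D + K libraries. By mean level, the order with PBS was Timp2, Mmp19, Mmp12, Mmp14 and Mmp13, none of which overlapped its neighbour, followed by Timp1, Mmp9 and Timp3, whose ranges overlapped. With RANKL the order was Mmp9, Timp2, Mmp14, Mmp19 and Mmp12 without overlap, followed by Mmp13, Timp1 and Timp3 with overlap. With RANKL + Vit D + K, Mmp12 stood alone at the top, the ranges from Timp2 through Mmp13, Mmp19 and Mmp9 to Mmp14 overlapped from neighbour to neighbour, and Timp1 and Timp3 stood below them.

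**Figure D4:**
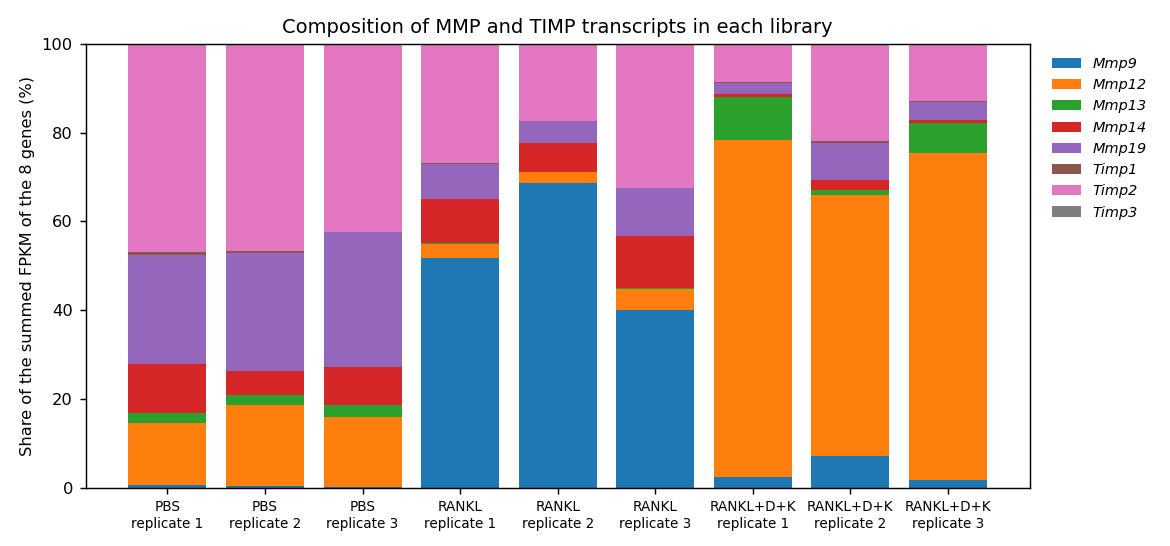
Share of each gene in the summed FPKM of the 8 MMP and TIMP genes (vertical axis, %), as stacked bars from 0 to 100 for each of the 9 libraries. Timp2 and Mmp19 fill most of the PBS bars, Mmp9 is the largest share of each RANKL bar (40.1% to 68.7%) and Mmp12 of each vitamin bar (58.8% to 75.9%).

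The summed FPKM of the 5 MMP genes divided by that of the 3 TIMP genes was 1.10, 1.12 and 1.36 in the PBS libraries, 2.71, 4.75 and 2.08 in the RANKL libraries and 10.5, 3.46 and 6.66 with RANKL + Vit D + K. Over these 8 genes, the PBS libraries lay below all others. RANKL and vitamin libraries overlapped, since vitamin replicate 2 was below RANKL replicate 2. This order depends on the genes summed. With Mmp8 added to the MMP sum, the ratio was 3.74, 4.45 and 4.23 with PBS, 3.52, 5.43 and 2.84 with RANKL and 11.8, 4.92 and 8.48 with the vitamins, so that PBS and RANKL libraries overlapped. The ratio is one of transcript levels per length, and measures neither protein nor enzyme activity.

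The other genes of matrix proteolysis were taken from lists of 70 genes, of which 65 were in the table and 47 were tested. Between RANKL and PBS, 2 of the 47 were called, Mmp8 and Mmp27, both lower, beside 3.61% of all tested genes. With the vitamins, 19 were called against RANKL and 23 against PBS, beside 33.7% and 40.8% of all tested genes, shares near those of the 47. Leaving out RANKL + Vit D + K replicate 2 brought 50 of these genes into the test, with 5, 23 and 28 called, beside 10.7%, 46.4% and 49.8% of all genes then tested. By list, the calls against RANKL were 1 higher and 2 lower of 7 other MMP and TIMP genes, 2 higher and 2 lower of 9 ADAM and ADAMTS proteinases, 4 higher and 3 lower of 12 genes of MMP activation and control at the cell surface, 1 higher and 1 lower of 11 matrix substrates, and 1 higher and 2 lower of 8 AP-1 subunits. The calls against PBS were 1 higher and 3 lower, 1 higher and 3 lower, 4 higher and 4 lower, 1 higher and 2 lower, and 2 higher and 2 lower of the same lists in this order. Without replicate 2 of the vitamin group, the ADAM and ADAMTS proteinases had 3 higher and 3 lower of 10 against RANKL and 2 higher and 4 lower against PBS. The AP-1 subunits then had 1 higher and 4 lower of 8 against RANKL and 2 higher and 4 lower against PBS, and each count of the other lists differed by at most 1. The median log2 fold changes against RANKL were -0.77, -0.12, 0.16, -0.66 and -0.73.

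Mmp8 had a mean level of 113 ± 18.0 FPKM with PBS, 43.9 ± 6.03 FPKM with RANKL and 23.6 ± 8.50 FPKM with RANKL + Vit D + K (SD, n = 3). It was 2.79-fold lower with RANKL than with PBS (log2 fold change -1.48, adjusted p = 0.0125, edgeR). In the PBS libraries, at 96.8 to 132 FPKM, it stood above each of the 8 genes. The 9 neutrophil markers summed to 11.1 to 128 FPKM with PBS, 11.3 to 148 FPKM with RANKL and 0.551 to 1.72 FPKM with the vitamins. With the vitamins, 6 of 8 tested were called lower than with RANKL (5 without RANKL + Vit D + K replicate 2), beside 17.2% of all tested genes. Camp, Elane, Ltf, Ly6g, Mpo and Retnlg were at 0 in all 3 vitamin libraries. In those same vitamin libraries Mmp8 was at 14.3 to 31.0 FPKM. The part of neutrophil RNA in the levels of Mmp8 and Mmp9, both of which neutrophils are known to make, was not tested.

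Mmp28, which encodes the metalloproteinase epilysin, was 12.9-fold higher with the vitamins than with RANKL (log2 fold change 3.69, adjusted p = 0.00351, edgeR), with 0.544, 0.815 and 1.14 FPKM against 0.0830, 0.0919 and 0.0346 FPKM. The urokinase system rose as well. Plau, the gene of urokinase, which makes the plasmin that activates pro-MMPs, was at 120, 34.1 and 98.4 FPKM with the vitamins against 4.88, 11.2 and 4.39 FPKM with RANKL, a 14.4-fold difference (3.84, adjusted p = 0.0015, edgeR). Plaur, the urokinase receptor gene, was 2.68-fold higher (1.42, adjusted p = 0.000881, edgeR). Cd44, whose product binds hyaluronan and docks MMP9 and MMP14, was 2.16-fold higher (1.11, adjusted p = 0.000873, edgeR). The groups did not overlap for any of these genes. By FPKM, vitamin replicate 2 was nearest to RANKL for Plau and Cd44. Replicate 1 was nearest for Mmp28 and for Plaur (12.7 FPKM, beside 19.9 and 15.2 FPKM in replicates 2 and 3).

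Genes of this kind that fell with the vitamins included Lcn2, whose product binds MMP9 (37.3-fold lower, log2 fold change -5.22, adjusted p = 0.0058, edgeR), Thbs1, the thrombospondin 1 gene (23.4-fold lower, -4.55, adjusted p = 0.00778, edgeR), and Serpine2, an inhibitor of urokinase (-3.18, adjusted p = 0.0479, edgeR). Lcn2 is also a neutrophil gene, and the fall of the neutrophil markers with the vitamins is given above. Its part in the result for Lcn2 was not tested. The RANKL libraries spread widely for Thbs1, at 54.0, 6.77 and 118 FPKM, against 2.68, 2.04 and 2.26 FPKM with the vitamins. Of the ADAM genes, Adam8 was 2.32-fold higher (1.21, adjusted p = 0.00339, edgeR) and Adam19 was 7.15-fold lower (-2.84, adjusted p = 0.0026, edgeR). Among the matrix substrates, Spp1, the osteopontin gene, was 5.04-fold higher (2.33, adjusted p = 0.00862, edgeR) and Col1a1 was lower, with 0, 3 and 0 counts against 38, 24 and 25 (adjusted p = 0.0142, edgeR). The 13 stromal and skeletal markers, Col1a1 included, summed to 0.0303 to 0.170 FPKM with the vitamins and 0.462 to 0.502 FPKM with RANKL, and 2 of 5 tested were called lower, beside 17.2% of all tested genes. The part of stromal and skeletal RNA in the result for Col1a1 was not tested. Among the AP-1 subunits, Jun was 5.05-fold higher (2.34, adjusted p = 0.000773, edgeR) and Fosl2 was lower, at 2.02, 5.54 and 2.83 FPKM against 14.0, 17.3 and 13.6 FPKM (adjusted p = 0.00483, edgeR). Batf3 was also lower (-1.32, adjusted p = 0.0477, edgeR). The other 5 of the 8 tested, Fos among them, were not called. The part of AP-1 subunits in the results for Mmp12 and Mmp13, whose windows above hold AP-1 matches, was not tested.

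**Figure D5:**
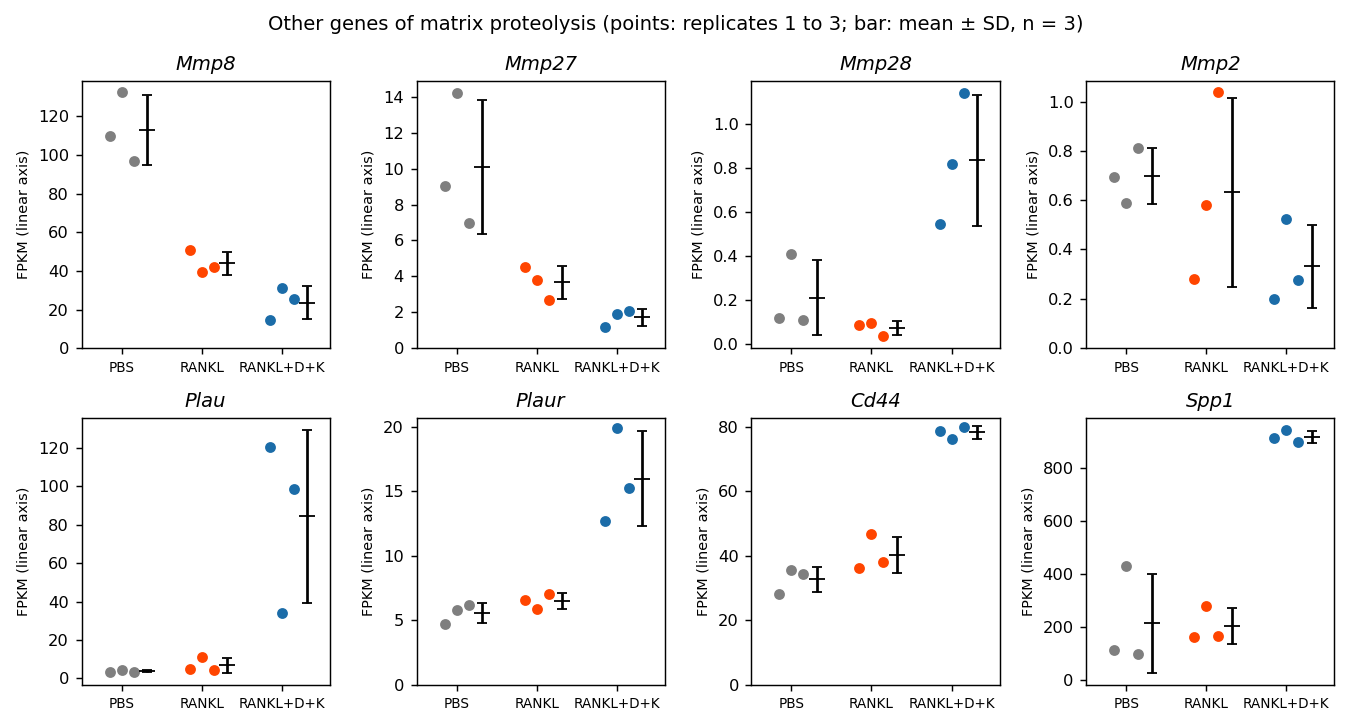
Level of 8 other genes of matrix proteolysis in each library, as FPKM on a linear axis with its own scale in each panel; points are replicates 1 to 3 from left to right and bars are the mean ± SD (n = 3). Mmp8 and Mmp27 are highest with PBS, whereas Mmp28, Plau, Plaur, Cd44 and Spp1 are highest with the vitamins (Spp1 at 899 to 945 FPKM).

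The genes with the most similar profiles were found by the root mean square difference of log2 CPM, centred on each gene's mean, over the 9 libraries. For Mmp9 these were Cyp2s1 (0.679) and Plxna4 (0.698), beside a median of 3.78 over all tested genes. For Mmp12 they were Atf4 (0.229) and Slc3a2 (0.248), beside a median of 1.58. The nearest to Mmp13 were Ccrl2 (0.422) and Pim1 (0.479), and to Mmp14 the predicted genes Gm36161 (0.286) and Gm21370 (0.292). Mmp19 had the closest match of all 8, Slc36a1 (0.0822), followed by Fam189b (0.119). The nearest to Timp1 were Gm32914 (0.505) and AA413626 (0.520), and to Timp2 Zfp971 (0.124) and Epsti1 (0.143). The medians over all tested genes were 1.88 for Mmp13, 1.74 for Mmp14, 1.08 for Mmp19, 1.10 for Timp1 and 0.945 for Timp2. Timp1 had only 4 to 42 counts per library. None of the 8 genes was among the 2 nearest of another.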

How the data were processed

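Poly(A) RNA of 9 libraries was sequenced in paired ends, and samples were grouped by the treatment in their labels. The deposited table holds, per gene and library, whole-number counts of reads, left without normalization by the authors, and FPKM, which the authors scaled to gene length and library. The submitters' processing notes name cutadapt 1.9, HISAT2 2.0.4, StringTie 1.3.4d and edgeR, without their roles. The notes name the human build hg38, but the gene IDs are those of mouse, and 90.46% of the 28294 IDs also found in GENCODE M21 (GRCm38) have the same coordinates there (7 of the 8 MMP and TIMP genes, with Mmp14 the exception). Use of strand and treatment of reads shared between similar genes are not given in the sources used here.

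The deposited counts were compared with edgeR 4.0.16 in R 4.3.3 (filterByExpr, TMM, quasi-likelihood test, 1 model of all 9 libraries, Benjamini-Hochberg adjustment over 17002 genes, threshold 0.05). The SE of a log2 fold change was taken as its absolute value over the square root of F. The test was also run on simulated counts with changes set in the RANKL group alone, so that check does not cover the vitamin comparisons. Its outcome is not reported here. Alternatives were DESeq2 1.42.0, limma 3.58.1 on log2 FPKM with 0.1, 1 or 0.01 added, median-of-ratios size factors, other filters, only the groups compared, a replicate block, and each library left out. Same-numbered libraries of the PBS and RANKL groups deviated together (correlations of deviations from group means 0.122, 0.219 and 0.155, all above 0.1), so the pairing was accepted there, from these data, and not for the other comparisons. The correlations were 0.00625, 0.0428 and 0.107 between the vitamin and RANKL groups and -0.0216, 0.0217 and 0.0237 between the vitamin and PBS groups. The block was nevertheless fitted over all 9 libraries at once, so it also applied to the vitamin libraries. The genes and lists (other MMPs and TIMPs, ADAM and ADAMTS proteinases, activation and control, matrix substrates, AP-1 subunits, and markers of macrophages, osteoclasts, neutrophils, stromal, endothelial, and dendritic and lymphoid cells) were chosen with earlier results of these data known. Named genes were the 8 genes, up to 3 called genes per list, direction and comparison with the largest change, Mmp8, Mmp2, and the 2 nearest profiles of each gene (those of Timp3 are not reported here). Total counts were 65915112 to 68229647 per library, which bears on counting error only and not on the spread between libraries.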

Additional observations from a re-analysis of the deposited data

How the results depend on the processing

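Of the MMP and TIMP genes, 6 were called between the vitamins and RANKL and 5 between the vitamins and PBS, and these counts stayed within 1.5 times in every alternative run (6 to 7 and 5 to 7 with a library left out, and 6 and 5 with the replicate block). Between RANKL and PBS the 3 calls became 1 with no filter on low counts, 6 with only the groups compared and 1 with the replicate block, and 1 to 6 with a library left out, the 6 without RANKL + Vit D + K replicate 2. Mmp12 and Mmp14 lost that call without any single PBS or RANKL library (adjusted p up to 0.158 and 0.168, edgeR), both with no filter on low counts (0.0826 and 0.0692, edgeR), and Mmp12 also with median-of-ratios size factors (0.0504, edgeR), limma at a pseudocount of 1 (0.0524) and without RANKL + Vit D + K replicate 3 (0.0907, edgeR). Over all genes, the 614 calls between RANKL and PBS became 1611 with DESeq2, 1736 with only the groups compared, and 126 to 316 with a PBS or RANKL library left out (126 without PBS replicate 3) and 1903 (without RANKL + Vit D + K replicate 2), and 825 with the block. The 5725 calls between the vitamins and RANKL became 3199 to 8259 with a library left out (3199 and 3507 without RANKL replicate 1 or 3, 3749 and 3300 without RANKL + Vit D + K replicate 1 or 3, 8259 without its replicate 2). Among the other genes of matrix proteolysis, of which 47 were tested, the 2 calls between RANKL and PBS became 6 with DESeq2, 4 with only the groups compared, and 0 to 5 with a library left out (0 by edgeR without PBS replicate 1 or RANKL replicate 2, where 8 and 9 had an unadjusted p under 0.05, and 5, of the 50 then tested, without RANKL + Vit D + K replicate 2). These alternatives for the other genes were chosen after seeing the data. For single genes, 379 of 417 alternative values kept direction and side of the threshold, 19 lost the call, 13 gained it and 6 reversed. The log2 fold change of Timp3 between RANKL and PBS was -0.26 without RANKL replicate 2 and reversed to 0.11 without RANKL replicate 3. Timp1 between the vitamins and PBS became 0.16 and 0.40 with limma at pseudocounts 0.1 and 0.01, 0.26 with the replicate block, and ranged from -0.58 (without PBS replicate 3) to 0.55 (without PBS replicate 1), with 0.02 without PBS replicate 2. The cause was not tested.

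By edgeR, 48.8% of the calls between the vitamins and RANKL and 65.1% of those between RANKL and PBS were higher. With limma on log2(FPKM + 0.1) these shares were 36.0% and 74.5%, and the median over all genes for the vitamins against RANKL, as log2 fold change, moved from -0.04 to -0.17. Timp1 and Timp3 had at most 42 and 70 counts in a library.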
